A study of Mus musculus with 12 samples.

Results

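Nrf2 was knocked down in Py2T LT, a mesenchymal mouse breast cancer cell line from a mammary gland tumour of the MMTV-PyMT strain, and the RNA of the knockdown was compared with that of its control across all expressed genes. The genes described are those with at least 1 CPM (read counts scaled to a common library total, the unit the authors deposited) in at least 2 of the 4 Py2T LT libraries, which were 11205 of the 24454 Entrez gene IDs in the table. The 4 libraries come from cells 48 hours after transfection, 2 with an Nrf2-directed siRNA (siNrf2) and 2 with a non-targeting siRNA (siCtl), both from Dharmacon, out of 12 libraries in the series. The other 8 are siNrf2 and siCtl libraries, 2 each, of PyMT-1099 LT, which is also from the MMTV-PyMT strain, and of MT∆Ecad, an E-cadherin-deleted line from the MMTV-Neu strain, treated for the same time. All are cultured tumour lines without genetic targeting of Nrf2, and the labels do not say whether Py2T LT is a clone, how many siRNA sequences were used, or what the replicate numbers mark. The series text calls the duplicates biological.

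NRF2, encoded by Nfe2l2, is a basic leucine zipper transcription factor that KEAP1 marks for degradation in unstressed cells. Oxidants and electrophiles release it from KEAP1, and it then pairs with small MAF proteins on antioxidant response elements. Its targets make and recycle glutathione, supply NADPH, reduce quinones and aldehydes, store iron and export conjugates, and tumour cells often keep them high.

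The Py2T LT libraries held 29643136 and 37070635 reads (siCtl 1 and 2) and 30967721 and 35835938 reads (siNrf2 1 and 2), so that 1 CPM stood for 29.6 to 37.1 reads. Those of the other lines held 27088970 to 35633505. Changes are differences of log2(CPM + 1) between siNrf2 and siCtl, a scale that understates changes of genes with low values. They were tested with limma, pairing the libraries by replicate number within each line, with Benjamini-Hochberg adjustment over the 11205 genes. A gene is called higher or lower where the adjusted p was at most 0.05. SE is the standard error of the log2 change. The label of a mesenchymal line was checked against markers: Vim (vimentin) lay between 1489 and 1855 CPM and Fn1 (fibronectin) between 8609 and 10206 CPM in the 4 libraries, while the junction genes Cldn7 and Ocln were at 0.279 CPM or less. Cdh2 (N-cadherin), another mesenchymal marker, was at only 12.01 to 14.8 CPM, against 205 to 215 CPM in the siCtl libraries of the other lines. Epithelial genes were nevertheless present, with the junction genes Cldn4 and Cldn3 at 129.995 to 234 and 9.99 to 13.5 CPM, the epithelial regulators Esrp1 and Grhl2 at 9.99 to 17.8 and 8.74 to 13.1 CPM, Krt18 at 1198 to 1729.8 CPM, Epcam at 16.7 to 30.8 CPM and Cdh1 at 12.5 to 18.1 CPM. The T cell markers Cd3e, Cd4 and Cd8a were at 0 in all 4 libraries, and the endothelial markers Pecam1 and Kdr were at 0.108 CPM or less.

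Nfe2l2 (Entrez 18024, GRCm38 chromosome 2, 75675513 to 75704663) was at 89.7 and 83.6 CPM in siCtl and 21.9 and 24.5 CPM in siNrf2. Both siNrf2 libraries lay far below both siCtl libraries, with 26.8% of the mean siCtl level left. The log2 change was −1.86 (SE 0.0963, limma adjusted p 0.00121). With either Py2T LT pair left out the change was −1.73 or −1.99 with limma adjusted p of 0.0543 and 0.0612. KEAP1 and the NRF2 partners did not pass the test: of 13 regulators and partners tested only Nfe2l2 itself was called. Keap1, the substrate adaptor that directs NRF2 to degradation, had a log2 difference of −0.09 (limma adjusted p 0.450). The small MAF genes Mafg, Mafk and Maff had differences of −0.10, 0.13 and 0.21, and Bach1, a repressor that binds the same elements, had one of −0.17.

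**Figure D1:**
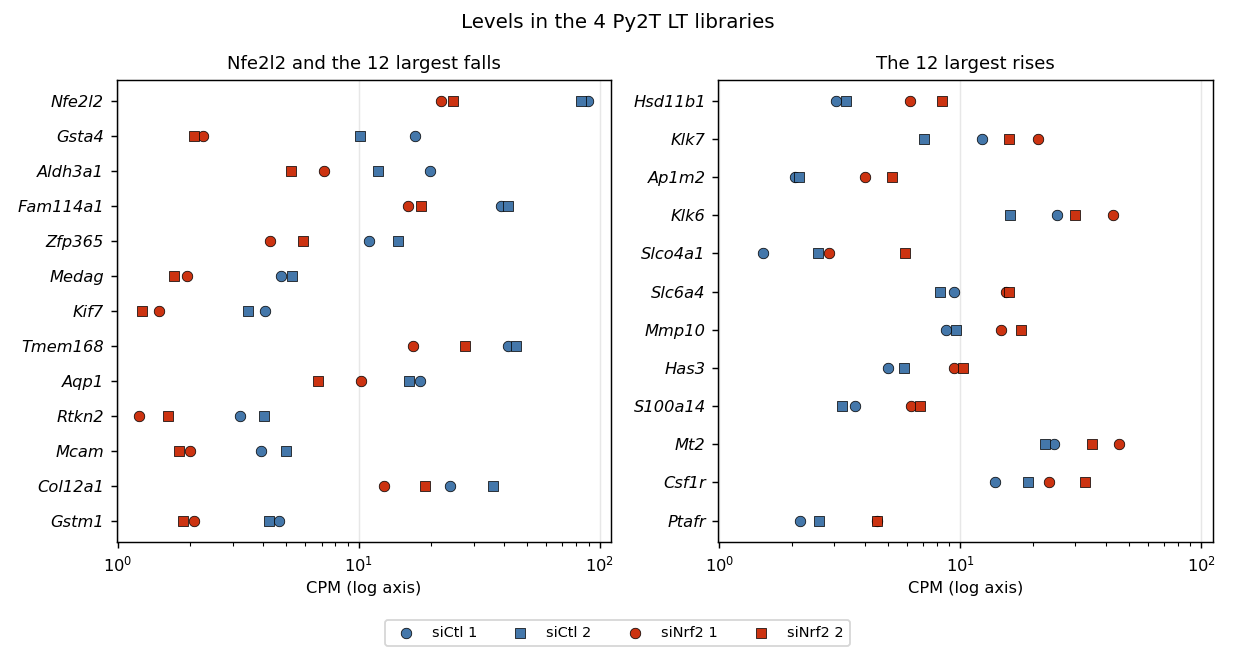
Level of Nfe2l2, the 12 largest falls (left) and the 12 largest rises (right) among called genes in each of the 4 Py2T LT libraries, on a logarithmic CPM axis; circles are replicate 1, squares replicate 2, blue siCtl and red siNrf2. In every gene shown both siNrf2 libraries lie on the same side of both siCtl libraries, which the choice of these genes required.

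Across the transcriptome the response of Py2T LT was small. Of 11205 genes, 55 were called higher (0.491%) and 101 lower (0.901%), together 156 (1.39%), and 7 of them changed by 1 or more on the log2 scale. The median log2 change was 0.48 among the genes called higher and −0.50 among those called lower, against −0.02 over all tested genes. Of the 11205 changes 4666 were positive and 6539 negative, against which counts of signs in the lists are to be read. Among the genes called lower, the 2 siNrf2 libraries both lay below both siCtl libraries in 95 of 101, and among those called higher both lay above in 52 of 55. Over all tested genes such groups without overlap were found for 15.6% (siNrf2 lower) and 7.67% (siNrf2 higher). Both pairs moved in the direction of the call in all 156. The paired test chose the genes by these same values and favours pairs that move alike, so these counts are no independent evidence for the calls.

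The number of calls depended on how the spread was estimated. Without the replicate block limma called 5 genes higher and 9 lower, and these are 14 of the 156: Gsta4, Nfe2l2, Fam114a1, Zfp365, Medag, Kif7, Gstm1, Ephx1 and Ak3, all lower, and Hsd11b1, Mmp12, Ap1m2, Slc6a4 and Ptafr, all higher. Every other Py2T LT call named here, in whichever list, was lost without the block. Leaving out either Py2T LT pair, or either MT∆Ecad pair, left at most 8 genes called in each direction. Of the 55 genes called higher, 24 were below 1 CPM in all 8 libraries of the other lines, against 3.31% of tested genes and 5 of the 101 called lower. The median SE of these 24 was 0.0842, against 0.0779 over all tested genes. The fit gave each gene a single spread over all lines. Genes hardly expressed in the other lines vary little there on this scale, so their SE may understate the spread in Py2T LT. Without the block limma called 4 of these 24. edgeR, on the whole reads recovered from the CPM, called 17 of these 24 and 131 of the 156, and DESeq2 called 7 and 107 while giving no adjusted p for 4 and 9. With only genes at 1 CPM or more in at least 2 libraries of every line, 16 were called higher and 62 lower.

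The largest fall was that of Gsta4, and the 12 largest included detoxification enzymes and cytoskeletal, matrix and surface genes. These 12, and the 12 largest rises below, were taken only from called genes whose groups did not overlap. Gsta4 encodes a glutathione S-transferase that conjugates 4-hydroxynonenal, a product of lipid peroxidation (chromosome 9, 78191966 to 78209349). It was at 17.1 and 10.1 CPM in siCtl and 2.26 and 2.06 CPM in siNrf2. Both knockdown libraries were low and alike, at 15.9% of the siCtl mean, and the log2 change was −2.16 (SE 0.173, limma adjusted p 0.00524). Aldh3a1, an aldehyde dehydrogenase that oxidises aldehydes from lipid peroxidation, was at 19.8 and 12.03 CPM in siCtl and 7.14 and 5.22 CPM in siNrf2. The groups did not overlap although replicate 1 was the higher library in both, and the change was −1.21 (SE 0.105, limma adjusted p 0.00524). Gstm1, a mu-class glutathione S-transferase, was at 4.66 and 4.24 CPM in siCtl and 2.07 and 1.87 CPM in siNrf2 (−0.88, limma adjusted p 0.00869). Its family includes close paralogs, and how the authors' counting split shared reads is not given in the sources used here.

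Other large falls were of genes outside redox metabolism. Fam114a1 was at 38.9 and 41.4 CPM in siCtl and 15.9 and 18.2 CPM in siNrf2 (log2 change −1.19, limma adjusted p 0.00524). Zfp365, a zinc finger gene, was at 10.998 and 14.5 CPM in siCtl and 4.29 and 5.86 in siNrf2 (−1.18). Both had siNrf2 libraries far below siCtl. Medag, a gene linked to adipocyte differentiation, was at 4.76 and 5.29 CPM in siCtl and 1.94 and 1.70 in siNrf2 (−1.09). Kif7, a kinesin of the primary cilium that acts in Hedgehog signalling, was at 4.08 and 3.45 CPM in siCtl and 1.49 and 1.26 in siNrf2 (−1.01). In each of them the siNrf2 libraries lay together below both siCtl libraries. Gsta4, Nfe2l2 and Fam114a1 were the only genes called under all 11 other settings of the analysis (the fits without a pair are given apart).

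The rest of the 12 largest falls ranged from −0.97 (Tmem168) to −0.88 (Gstm1). Tmem168 was uneven between replicates, at 41.6 and 44.9 CPM in siCtl and 16.9 and 27.5 CPM in siNrf2. Aqp1, a water channel, was at 17.9 and 16.1 CPM in siCtl and 10.2 and 6.78 in siNrf2, and Mcam, an adhesion molecule of the immunoglobulin family, at 3.91 and 4.99 CPM in siCtl and 2.002 and 1.79 in siNrf2. Rtkn2 was at 3.20 and 4.05 CPM in siCtl and 1.23 and 1.62 in siNrf2. No siNrf2 library of these genes reached a siCtl library, which the choice of the 12 largest falls required.

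Some of the genes NRF2 is best known to control fell. Of 45 NRF2 target genes listed, 36 were tested, and 6 were called lower and 0 higher, against 0.901% and 0.491% of all tested genes. The list's median log2 change was −0.19, against −0.02 over all genes, and 31 of the 36 changes were negative. In 22 of the 36 both siNrf2 libraries lay below both siCtl libraries (61.1%, against 15.6% of all genes). No target was called higher by edgeR or DESeq2 either, and 0 were higher at an unadjusted p under 0.05, while 23 were lower (63.9%). Over all tested genes 5.85% were higher and 11.7% lower at that unadjusted threshold, against which such counts of the lists are to be read. Without the block 3 of the 6 kept the call (Gsta4, Gstm1 and Ephx1). The list was written from textbook knowledge with earlier results of these data known, so its direction is a description.

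The called targets beside Gsta4 and Gstm1 were Ephx1, Esd, Gstp1 and Fth1. Ephx1, the microsomal epoxide hydrolase, was at 8.06 and 9.12 CPM in siCtl and 4.94 and 4.52 CPM in siNrf2 (log2 change −0.74, SE 0.0769, limma adjusted p 0.0116). Esd, which hydrolyses S-formylglutathione, was at 272 and 203 CPM in siCtl and 155 and 147 in siNrf2 (−0.63, limma adjusted p 0.0256). Gstp1, the pi-class glutathione S-transferase, was at 61.9 and 49.04 CPM in siCtl and 49.5 and 37.4 in siNrf2 (−0.35, limma adjusted p 0.0319). Gstp1 was lower in siNrf2 within each pair, but siNrf2 replicate 1 lay just above siCtl replicate 2, so the groups overlap. Fth1, the ferritin heavy chain that stores iron, was at 1893 and 1487 CPM in siCtl and 1459 and 1192 in siNrf2 (−0.35, limma adjusted p 0.0139), where siNrf2 replicate 1 was just below siCtl replicate 2.

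Well-known targets that were not called include the enzymes of glutathione synthesis and quinone reduction. Nqo1, the quinone reductase often used as a readout of NRF2, was at 3.85 and 2.75 CPM in siCtl and 2.33 and 2.29 CPM in siNrf2 (−0.37, limma adjusted p 0.153). Its level was low in every line, with a median of 1.82 and a maximum of 5.18 CPM over the libraries of the other lines. Gclc and Gclm, the catalytic and modifier subunits of glutamate-cysteine ligase, had log2 differences of −0.32 and −0.15 (limma adjusted p 0.0765 and 0.340). Gclc was at 82.1 and 79.4 CPM in siCtl and 60.5 and 68.4 CPM in siNrf2, lower in both knockdown libraries. Slc7a11, the cystine carrier, was at 10.9 and 10.1 CPM in siCtl and 6.88 and 8.23 in siNrf2 (−0.43, limma adjusted p 0.220), and the heme transporter Slc48a1 at 274 and 210.2 CPM in siCtl and 202 and 154 in siNrf2 (−0.44, limma adjusted p 0.0513). All of these were lower in both siNrf2 libraries without passing the threshold. The differences were −0.16 for Txnrd1 (thioredoxin reductase), 0.06 for Srxn1 (sulfiredoxin) and −0.02 for Hmox1 (heme oxygenase). Hmox1 instead followed the replicate number, at 137 and 83.4 CPM in siCtl and 134 and 82.8 CPM in siNrf2.

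**Figure D2:**
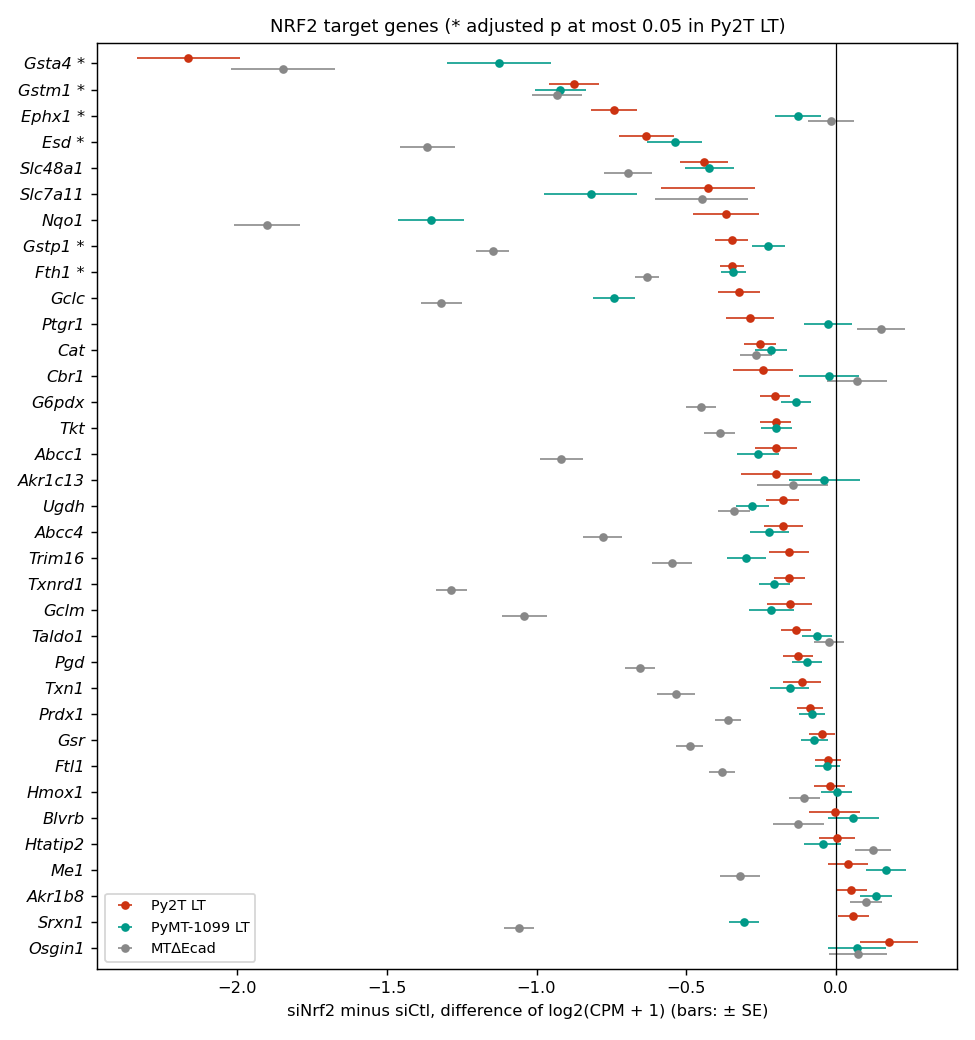
Log2(CPM + 1) change after siNrf2 with its SE for the 35 tested NRF2 target genes with a mean of at least 2 CPM, in Py2T LT (red), PyMT-1099 LT (green) and MT∆Ecad (grey), ordered by Py2T LT; asterisks mark the 6 called in Py2T LT. Nqo1, Gclc, Srxn1 and Txnrd1 stand far lower in MT∆Ecad than in Py2T LT, while Ephx1 is at −0.74 in Py2T LT, −0.13 in PyMT-1099 LT and −0.02 in MT∆Ecad.

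The promoters of some targets carry the core of the antioxidant response element. The motif TGACNNNGC, searched on both strands from 250 bases before to 50 after each start site in the RefSeq table (GRCm38.p6), in any window of a gene, was found in 10 of the 29 tested NRF2 targets with a promoter in the table (34.5%), against 16.9% of 8971 tested genes. By window the shares were 12 of 38 (31.6%) and 14.3% of 11483, since 8 of the 29 and 1854 of the 8971 have several start sites. It was in 13 of 75 genes called lower and 6 of 42 called higher. None of the 10 targets with the motif was called in Py2T LT. The sites of Nfe2l2 itself and of 3 targets are shown because they represent the element beside genes whose changes are given here; the capitals mark the motif.
Nfe2l2 (chr2:75704886-75704912, strand minus): cagcccaccTGACTCCGCcatgccccg
Gclm (chr3:122245414-122245440, strand minus): cgtgagagtTGACGGTGCgcccgggag
Prdx1 (chr4:116685457-116685483, strand minus): tacgggggaTGACTCAGCgctttccct
Txnrd1 (chr10:82859105-82859131, strand minus): gtgtcagaaTGACAAAGCaaaaatcca
Nfe2l2 lies on the minus strand and the other 3 genes on the plus strand. The Txnrd1 site belongs to a start site inside the gene, 1 of 3 for Txnrd1 in the table. Prdx1, a peroxiredoxin that reduces hydrogen peroxide, had a log2 difference of −0.09 (limma adjusted p 0.364), close to those of Gclm and Txnrd1. A match is a description of the letters in the window and shows no binding.

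Glutathione S-transferases fell where they passed the test, and other redox groups held few called genes. Of 14 glutathione S-transferases tested 4 were called lower (Gsta4, Gstm1, Gstp1 and Mgst2, a microsomal transferase at 2.90 and 2.70 CPM in siCtl and 1.91 and 1.42 CPM in siNrf2), 0 higher, and all 14 changes were negative, with a median of −0.17. No member was higher at an unadjusted p under 0.05, or by edgeR or DESeq2. Over all tested genes 0.901% were called lower and 0.491% higher, against which the counts of called genes in this and the later lists are to be read. Of 23 quinone, aldehyde and epoxide detoxification genes 2 were called, Aldh3a1 and Ephx1, both lower (median −0.08). Of 20 pentose phosphate and NADPH genes 0 were called by limma, edgeR or DESeq2, with 9 lower and 1 higher at an unadjusted p under 0.05 and a median of −0.10. Of 21 thioredoxin and peroxiredoxin genes 1 was called, and it was higher: Prdx5, a peroxiredoxin of mitochondria and peroxisomes, was at 616 and 493 CPM in siCtl and 845 and 649 CPM in siNrf2 (0.43, SE 0.0527, limma adjusted p 0.0163).

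The 12 largest rises included secreted proteases, transporters, receptors, a steroid enzyme and a metallothionein. Hsd11b1, which regenerates active glucocorticoid, was at 3.04 and 3.34 CPM in siCtl and 6.17 and 8.37 CPM in siNrf2. Both siNrf2 libraries stood well above siCtl, with a log2 change of 0.97 (SE 0.0956, limma adjusted p 0.00869). The kallikrein-related serine proteases Klk7 and Klk6, known from skin and secretory epithelia, rose by 0.89 and 0.81 (limma adjusted p 0.0139 and 0.00869). Klk6 was at 25.1 and 15.996 CPM in siCtl and 43.1 and 29.9 CPM in siNrf2, and Klk7 at 12.3 and 7.07 CPM in siCtl and 20.96 and 15.9 in siNrf2. In both kallikreins replicate 1 was the higher library of each group, and siNrf2 replicate 2 lay only a little above siCtl replicate 1.

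Mmp10 (stromelysin 2), which degrades matrix proteins and activates other proteases, was at 8.70 and 9.63 CPM in siCtl and 14.8 and 17.8 CPM in siNrf2 (0.76, limma adjusted p 0.0268). Has3, which makes hyaluronan, was at 4.99 and 5.83 CPM in siCtl and 9.43 and 10.3 in siNrf2 (0.76), and Mt2, a metallothionein that binds zinc and copper, at 24.4 and 22.4 CPM in siCtl and 45.6 and 35.1 in siNrf2 (0.75, limma adjusted p 0.0120). None of these groups overlapped. Mt1, another metallothionein, had a log2 difference of 0.35 (limma adjusted p 0.0934). Slc6a4, the serotonin transporter, was at 9.41 and 8.23 CPM in siCtl and 15.4 and 15.96 in siNrf2 (0.77), and Ap1m2, an adaptor subunit for basolateral sorting in epithelia, at 2.06 and 2.13 CPM in siCtl and 4.004 and 5.19 in siNrf2 (0.85). Ap1m2, Klk6, Klk7, Slc6a4, Has3 and Ptafr, the receptor of platelet-activating factor (0.71), were among the 24 rises below 1 CPM in every library of the other lines. The remaining large rises were Slco4a1, an organic anion transporter (0.78), and S100a14, a calcium-binding protein of epithelia (0.76). Slco4a1 was uneven, at 1.52 and 2.56 CPM in siCtl and 2.84 and 5.92 CPM in siNrf2.

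Csf1r, the receptor of macrophage colony-stimulating factor, rose from 13.9 and 19.02 CPM in siCtl to 23.2 and 33.04 CPM in siNrf2 (0.73, SE 0.0956, limma adjusted p 0.0183). It is a macrophage marker, and the 10 macrophage markers summed to 19.2 and 25.3 CPM in siCtl and 28.9 and 40.9 CPM in siNrf2. Csf1r made up most of these sums. Mrc1, the mannose receptor of macrophages, was also higher in both siNrf2 libraries without passing the threshold, at 2.29 and 2.78 CPM in siCtl and 3.003 and 4.83 CPM in siNrf2 (0.45, limma adjusted p 0.0934). Of the other macrophage markers, Ptprc, Adgre1 and Itgam stayed at 0.135 CPM or less in all 4 libraries and Cd68 and Lyz2 had log2 differences of −0.04 and −0.10. The part of other cell types in these values was not tested. In such bulk libraries fewer cells of a type and less RNA per cell cannot be told apart. The 8 endothelial markers summed to 4.50 to 6.36 CPM, nearly all from Cdh5, and the 6 adipocyte markers to 0.647 to 1.67 CPM, with Plin1, Cidec, Lep and Retn at 0. T and B cell markers summed to 0.108 CPM or less, with 7 of 8 at 0.

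Matrix genes that passed the test were lower, and matrix proteases that passed it were higher. Of 37 matrix and cross-linking genes 3 were called lower and 0 higher, against 0.901% and 0.491% of all tested genes (median −0.08). Col12a1, a collagen on the surface of fibrils, was at 23.99 and 36.2 CPM in siCtl and 12.7 and 18.8 CPM in siNrf2 (−0.89, SE 0.100, limma adjusted p 0.0139). Replicate 2 was higher than replicate 1 in both groups, and the groups did not overlap. Sparc, a matricellular glycoprotein, was at 171 and 179.8 CPM in siCtl and 139.8 and 127 in siNrf2 (−0.39, limma adjusted p 0.0217), and the last of the 3 was the crosslinking oxidase Loxl1, which had a mean under 2 CPM. edgeR called 2 and DESeq2 4 of the list lower and neither called any higher, with 9 lower and 2 higher at an unadjusted p under 0.05.

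Of 21 matrix proteases and inhibitors 3 were called higher and 0 lower, against 0.491% and 0.901% of all tested genes (median 0.10). They were Mmp10, the elastase Mmp12, which had a mean under 2 CPM, and Plau, the urokinase that activates plasminogen. Plau was at 236 and 247 CPM in siCtl and 324 and 349 CPM in siNrf2 (0.47, limma adjusted p 0.0225). edgeR and DESeq2 each called 1 of the list lower. At an unadjusted p under 0.05, 4 were lower (19.0%, against 11.7% of all genes) and 7 higher (33.3%, against 5.85%). With only genes expressed in every line 1 of the 3 rises was called.

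Mesenchymal and epithelial genes showed few calls in either direction. Of 26 mesenchymal genes 1 rose and 1 fell, against 0.491% and 0.901% of all tested genes (median −0.07). Cd44, a hyaluronan receptor, was at 536 and 547 CPM in siCtl and 664 and 714 CPM in siNrf2 (0.35, limma adjusted p 0.0165), and Pdgfrb, a growth factor receptor of mesenchymal cells, at 44.3 and 60.2 CPM in siCtl and 35.5 and 38.1 in siNrf2 (−0.48, limma adjusted p 0.0424). Pdgfrb is also 1 of 8 fibroblast markers, whose sum was 113 and 142 CPM in siCtl and 98.3 and 109 CPM in siNrf2, with Lum at 0. Of 34 epithelial genes 26 had a positive change, against 4666 of 11205 tested genes, with a median of 0.15. By limma only Ap1m2 was called higher, while edgeR and DESeq2 each called 2 higher and 1 lower. At an unadjusted p under 0.05, 13 were higher (38.2%, against 5.85% of all genes) and 6 lower (17.6%, against 11.7%). Epcam had a log2 difference of 0.53 (limma adjusted p 0.0710) and Krt18 one of 0.25 (limma adjusted p 0.0526). The basal keratin Krt14 went the other way, from 33.3 and 31.1 CPM in siCtl to 19.9 and 20.3 CPM in siNrf2 (−0.65, limma adjusted p 0.0203).

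Few proliferation genes passed the test. Of 46 S phase and DNA replication genes 2 were called lower and 0 higher, against 0.901% and 0.491% of all tested genes. Of their changes 40 were negative and the median was −0.12. In 20 of the 46 the siNrf2 libraries both lay below siCtl (43.5%, against 15.6% of all genes). Tk1, the thymidine kinase of S phase, was at 146 and 132 CPM in siCtl and 109 and 99.8 CPM in siNrf2 (−0.41, limma adjusted p 0.0401), and Uhrf1, which maintains DNA methylation at replication, at 379 and 329 CPM in siCtl and 307 and 268 in siNrf2 (−0.30). No S phase gene was higher by edgeR, DESeq2 or at an unadjusted p under 0.05. Of 41 mitosis genes 0 were called by limma, edgeR or DESeq2, with 8 lower (19.5%, against 11.7% of all genes) and 0 higher at an unadjusted p under 0.05 and a median of −0.08.

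Genes of the lysosome were called higher in 2 cases and those of the integrated stress response in none. Of 32 stress response genes 0 were called by limma or edgeR and 1 by DESeq2 (higher), with 8 higher and 1 lower at an unadjusted p under 0.05 and a median of 0.13. The siNrf2 libraries both lay above siCtl in 8 of them (25.0%, against 7.67% of all genes). Of 39 lysosome and autophagy genes 2 were called higher and 0 lower, against 0.491% and 0.901% of all tested genes. Of their changes 31 were positive and the median was 0.10. Neu1, the lysosomal sialidase, was at 31.1 and 27.9 CPM in siCtl and 41.9 and 38.98 CPM in siNrf2 (0.44, limma adjusted p 0.0292), and Atp6v0d1, a subunit of the proton pump that acidifies lysosomes, at 73.04 and 62.4 CPM in siCtl and 98.7 and 79.7 in siNrf2 (0.39, limma adjusted p 0.0204). Of the 39, edgeR called 3 and DESeq2 4 higher, and neither called any lower. At an unadjusted p under 0.05, 14 were higher (35.9%, against 5.85% of all genes) and 0 lower. The siNrf2 libraries both lay above siCtl in 12 of the 39 (30.8%, against 7.67% of all genes) and below in 2 (5.13%, against 15.6%).

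Single members of other lists were called as well. The chemokine Cxcl12 fell from 132 and 125 CPM in siCtl to 89.8 and 95.2 CPM in siNrf2 (−0.47) and the cytokine Csf2 rose from 27.7 and 23.5 CPM in siCtl to 38.6 and 34.6 CPM in siNrf2 (0.50). The sterol exporter Abcg1 rose by 0.59 on the log2 scale. The ER-resident growth factor Manf (−0.34), the kinase Plk2 (−0.45) and the Hippo pathway genes Ptpn14 (−0.29) and Ajuba (−0.26) fell. Of 21 interferon-stimulated genes 0 were called by limma, edgeR or DESeq2, with 4 lower (19.05%, against 11.7% of all genes) and 0 higher at an unadjusted p under 0.05 and a median of −0.09. None of 49 cytosolic ribosomal protein genes was called by limma, edgeR or DESeq2, with 2 lower and 0 higher at an unadjusted p under 0.05.

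**Figure D3:**
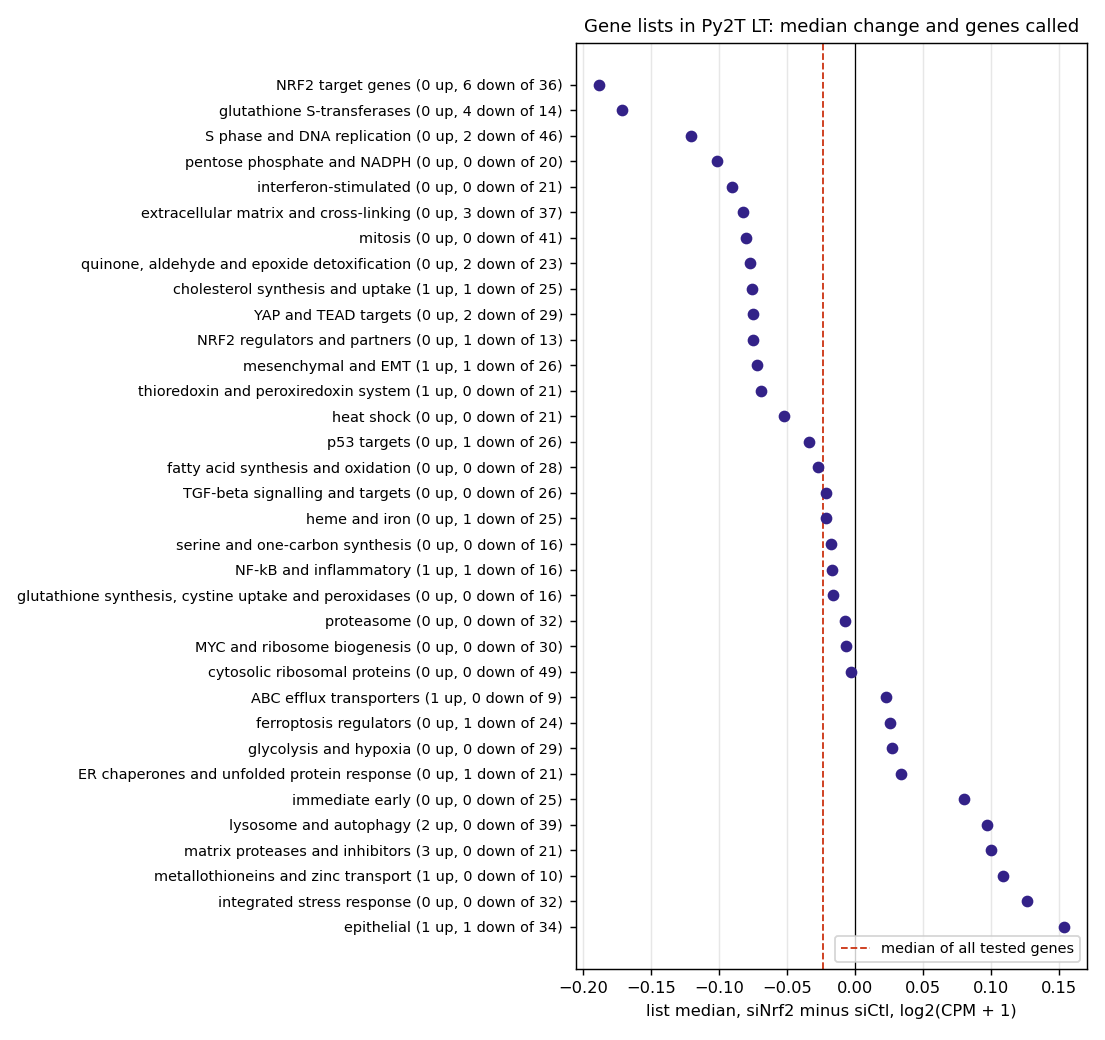
Median log2(CPM + 1) change in Py2T LT of each gene list with at least 5 tested members, with the genes called higher (up) and lower (down) of those tested; the dashed line is the median of all tested genes (−0.02). NRF2 targets and glutathione S-transferases have the lowest medians (−0.19 and −0.17) and the epithelial list the highest (0.15).

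Many of the falls were in transcripts whose 3′ UTR holds ACCATTT or GAGAAGT, 7-mers that an earlier analysis of these data had singled out. Of 10830 tested genes with an annotated 3′ UTR (the longest per gene in GENCODE M21), 22.9% held either 7-mer, against 52 of the 101 genes called lower (51.5%) and 8 of the 55 called higher (14.5%). ACCATTT was in 13.8% of tested genes and 30.7% of those called lower, and GAGAAGT in 11.97% and 24.8%. The 3′ UTRs of the genes called lower were longer, with a median of 1551 bases against 1222.5 bases over tested genes. The genes were also split into 4 near-equal bins of 3′ UTR length. In the bin of shortest 3′ UTRs 16.7% of the genes called lower and 4.24% of tested genes held either 7-mer, and in the next bins 68.4% and 11.96%, 48.3% and 25.2%, and, for the longest, 72.4% and 50.2%. Since the 7-mers were found in these libraries, the shares are no independent evidence. The siRNA sequences are not given in the sources used here, and the part of such sites in the falls was not tested.

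Of the 12 largest falls, Fam114a1, Kif7 and Tmem168 hold ACCATTT and Zfp365 holds GAGAAGT, whereas Gsta4, Aldh3a1, Medag, Aqp1, Rtkn2, Mcam, Col12a1 and Gstm1 hold neither. The 3′ UTR of Nfe2l2 holds ACCATTT. Of the 6 called NRF2 targets, Fth1 holds ACCATTT and Esd GAGAAGT. Among the genes called lower, the median log2 change was −0.49 with either 7-mer and −0.50 without. All of these genes had passed the same threshold, so their medians cannot show whether the 7-mers go with a larger fall. Over all tested genes with an annotated 3′ UTR the medians were −0.04 with either 7-mer and −0.02 without, not matched for 3′ UTR length.

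**Figure D4:**
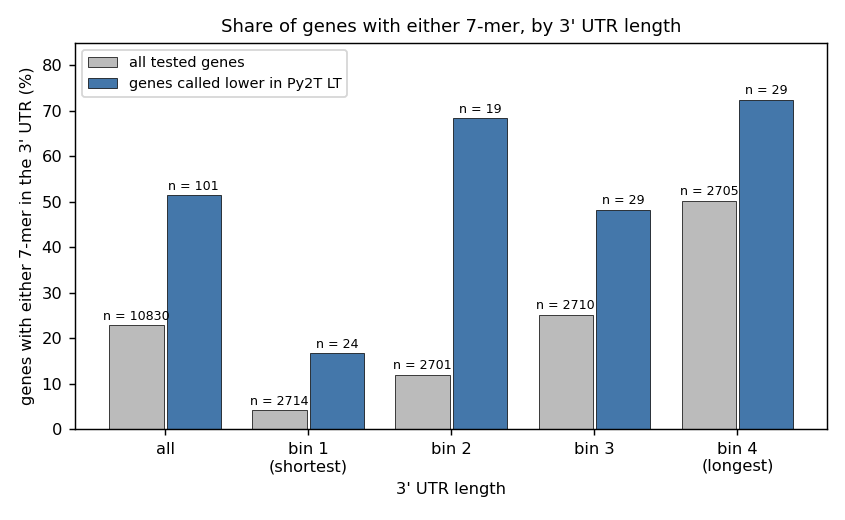
Percentage of genes with either 7-mer in the 3′ UTR, over all genes with an annotated 3′ UTR and within 4 bins of 3′ UTR length, for all tested genes (grey) and genes called lower in Py2T LT (blue); n is the number of genes in each bar. The share is higher among the genes called lower in each bin, from 16.7% against 4.24% in the shortest to 72.4% against 50.2% in the longest.

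The same genes were then followed into the other lines, which had their own controls. The fit gave each gene the same spread in every line, so the calls of a gene in the lines are not independent of each other. PyMT-1099 LT had 994 of the 11205 genes called (8.87%), 461 of them lower and 533 higher. MT∆Ecad had 4866 called (43.4%), 2544 of them lower and 2322 higher. An overlap in a direction is read against the count of that direction. Of the 101 genes called lower in Py2T LT, 52 were also called lower in PyMT-1099 LT, 61 in MT∆Ecad and 45 in both. Of the 55 called higher, 19 were called higher in PyMT-1099 LT, 17 in MT∆Ecad and 13 in both, the last including Mt2, Csf1r, Prdx5, Neu1 and Atp6v0d1. The 45 shared falls include Nfe2l2, Gsta4, Gstm1, Gstp1, Esd, Fth1, Fam114a1, Tmem168, Krt14, Tk1 and Uhrf1, and 29 of the 45 (64.4%) held either 7-mer. Of the 22 genes called lower in Py2T LT and in neither other line, 12 (54.5%) held either 7-mer. The share was 51.5% over all 101 genes called lower and 22.9% over tested genes with an annotated 3′ UTR. These shares were not split by 3′ UTR length, and the 7-mers were found in these same libraries, so they are a description.

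No gene passed the test of a difference from PyMT-1099 LT. By limma 0 of 11205 genes (0.0%) were called, with a smallest adjusted p of 0.0725 and 1426 genes at an unadjusted p under 0.05. edgeR called 1 and DESeq2 26. The smallest p-values included Aldh3a1, with a log2 difference of −1.21 in Py2T LT and −0.02 in PyMT-1099 LT, Zfp365 (−1.18 and −0.12), Kif7 (−1.01 and 0.02), Lratd2 (0.39 and −0.53), the polyamine enzyme Odc1 (0.22 and −0.39) and xanthine dehydrogenase Xdh (−0.23 and 0.65). Each of these 6 had an adjusted p of the difference above 0.05.

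Against MT∆Ecad, 2495 genes differed in their response (22.3%), 1125 with a higher and 1370 with a lower change in Py2T LT. Of the genes called in Py2T LT, 44 of the 55 higher and 55 of the 101 lower differed. These genes were chosen by their change in Py2T LT, which enters the difference, so the counts are no independent evidence. Of the 55 rises, 24 were below 1 CPM in all 8 libraries of the other lines, where a change could hardly show. Matrix genes were among the 2495 that differed. A lower change in Py2T LT was found for 27 of the 37 matrix and cross-linking genes. In MT∆Ecad 28 of the 37 were called higher, against 2322 of all 11205 tested genes. Col12a1 changed by −0.89 in Py2T LT and 0.67 in MT∆Ecad (adjusted p of the limma difference 0.00109), Sparc by −0.39 and 0.31 (0.00208) and Pdgfrb by −0.48 and 0.54 (0.00226). Mmp10 went the other way, higher in Py2T LT (0.76) and lower in MT∆Ecad (−0.41, adjusted p of the limma difference 0.00363), as did Cd44 (0.35 and −0.27, 0.00152).

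Many NRF2 targets fell further in MT∆Ecad. Of the 36 targets 18 had a higher change in Py2T LT and 2 a lower one, against 1125 and 1370 of 11205 tested genes. The list's median was −0.45 in MT∆Ecad and −0.20 in PyMT-1099 LT. In these lines 24 and 13 members were called lower, against 2544 and 461 of the 11205 genes. The log2 difference of Nqo1 was −1.90 in MT∆Ecad and −0.37 in Py2T LT (adjusted p of the limma difference 0.00161), that of Gclc −1.32 and −0.32 (0.00146) and that of Srxn1 −1.06 and 0.06 (0.000573). The 2 with a lower change in Py2T LT were Ephx1, which stood at −0.02 in MT∆Ecad (0.00479), and Ptgr1, a reductase of lipid aldehydes, at −0.29 in Py2T LT and 0.15 in MT∆Ecad (0.0318). Nfe2l2 itself had log2 changes of −1.86 in Py2T LT, −1.91 in PyMT-1099 LT and −1.97 in MT∆Ecad, with an adjusted p of the limma difference from MT∆Ecad of 0.585.

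Proliferation and interferon genes also separated the lines. Of 46 S phase genes 36 had a less negative change in Py2T LT than in MT∆Ecad, where the median was −0.59 and 45 were called lower. Of 21 interferon-stimulated genes 15 had a lower change in Py2T LT, against a median of 0.60 and 16 called higher in MT∆Ecad. Over all 11205 tested genes 1125 had a higher and 1370 a lower change in Py2T LT than in MT∆Ecad. In MT∆Ecad 2544 of them were called lower and 2322 higher. Among the genes with the smallest p of the difference, none of them called in Py2T LT, Cd93, a surface glycoprotein, stood at 0.13 in Py2T LT against 2.48 in MT∆Ecad, the hypoxia-inducible factor gene Epas1 at −0.35 and 1.53, the chemokine scavenger receptor Ackr3 at 0.11 and 1.96, and the acyl-CoA synthetase Acsbg1 at 0.23 and −1.16.

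**Figure D5:**
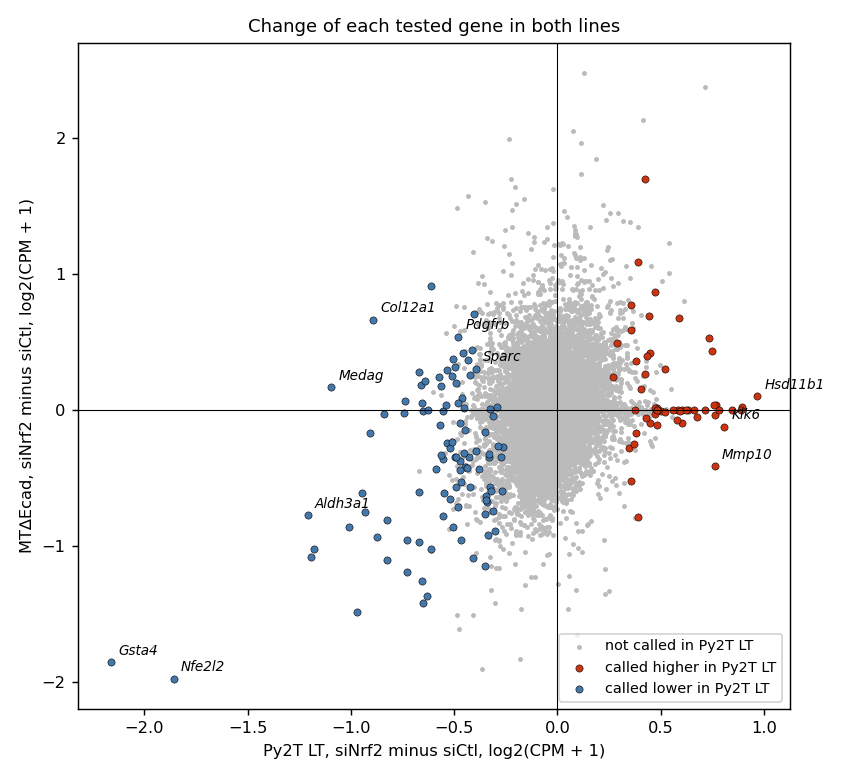
Log2(CPM + 1) change after siNrf2 of each of the 11205 tested genes in Py2T LT (horizontal) and MT∆Ecad (vertical), with the 55 genes called higher (red) and 101 called lower (blue) in Py2T LT. Nfe2l2 and Gsta4 fell in both, Col12a1, Sparc and Pdgfrb fell in Py2T LT and rose in MT∆Ecad, and a row of red points at 0 on the vertical axis is of genes hardly expressed in MT∆Ecad.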

How the data were processed

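RNA of 12 libraries was depleted of ribosomal RNA, made into stranded libraries and sequenced as single reads, per the labels' protocols. Alignment with STAR to mm10 is recorded in the submitters' processing notes. The counting tool, annotation and use of strand are not given in the sources used here, so genes that overlap or have close paralogs are uncertain. The authors deposited CPM per Entrez gene ID. Every CPM value came out as a whole read within 0.01 of a read, and these reads gave the library totals and the count tests. Symbols came from RefSeq (GRCm38.p6, 24374 IDs) and GENCODE M21 (7 IDs), and 73 IDs had no match.

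Genes reaching 1 CPM in 2 or more of the 4 Py2T LT libraries were tested with limma 3.58.1 in R 4.3.3 on log2(CPM + 1), with a mean trend in the prior variance. The fit held all 12 libraries, with a replicate block (6 pairs of same-numbered libraries of a line), 1 siNrf2 effect per line and 3 residual degrees of freedom. Tests are two-sided, and p-values measure the spread between these libraries. Pairing by replicate number was set before the fits and was not chosen from the data. Deviations of same-numbered libraries from their group mean correlated (r of 0.866 in Py2T LT, 0.802 in PyMT-1099 LT and 0.645 in MT∆Ecad). Alternatives were edgeR 4.0.16 and DESeq2 1.42.0 on the recovered reads, other filters, pseudocounts and scaling, and fewer libraries. The fits were checked on simulated data.

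The genes, lists and tests were chosen with earlier results of these data known. The names printed are Nfe2l2, the 12 largest falls and rises among called genes without overlap between groups, up to 4 called members per list, all regulators and targets of NRF2, markers of other cell types and the 6 smallest p-values of the difference from each other line, leaving out genes under a mean of 2 CPM. Mmp12, Loxl1, Ak3, Epcam, Krt18, Mt1 and the markers of line identity are named beside this rule, after their values were seen.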

Additional observations from a re-analysis of the deposited data

Results flagged for a closer look

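The siNrf2 effect differed between Py2T LT and MT∆Ecad for 2495 genes (limma test of the difference, adjusted p at most 0.05), which is why the genes below are listed; no value on a cause was computed. Differences are given as the log2 change in Py2T LT minus that in MT∆Ecad. Among the largest falls of Py2T LT the difference was −1.27 for Medag, −0.74 for Mcam and −1.56 for Col12a1, with Col12a1 opposite in sign in the lines. Among the largest rises it was 0.86 for Hsd11b1, 0.89 for Klk7, 0.85 for Ap1m2, 0.93 for Klk6, 0.78 for Slco4a1, 0.73 for Slc6a4, 1.17 for Mmp10, 0.80 for Has3, 0.72 for S100a14 and 0.71 for Ptafr. Klk7, Ap1m2, Klk6, Slc6a4, Has3 and Ptafr were below 1 CPM in every library of the other lines, where a change of such genes could hardly show. The log2 change of Slco4a1 in MT∆Ecad was 0, and its lowest level in the libraries of the other lines was 0 CPM, so its difference may carry the same limit. Of the genes with the smallest p of the difference it was −2.35 for Cd93, 1.39 for Acsbg1, −1.88 for Epas1, −1.98 for Tmem140, −1.85 for Ackr3 and −1.85 for Slc43a2.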

How the results depend on the processing

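No called result turned its direction under any alternative that was run, but most alternatives could not turn one. Changing the block, the filter or the other lines' libraries in the limma fit left the log2 change as it was. Both Py2T LT pairs had the sign of the call in every called gene, so leaving out a pair could not turn it either. Against 55 genes called higher and 101 lower, the fit without the replicate block gave 5 and 9, pseudocount 0.1 gave 18 and 55, the filter in every line 16 and 62, the 8 libraries of both PyMT lines 1 and 7, the 4 Py2T LT libraries alone 120 and 210 (1 residual degree of freedom, so the spread was taken from other genes), and no filter 61 lower. edgeR without the block, an alternative chosen after seeing the data, gave 0 and 6. Leaving out a pair of any line gave 0 to 48 higher and 0 to 114 lower, and the low counts came from leaving out a Py2T LT or an MT∆Ecad pair. For the members of all lists together, 12 called higher and 22 lower became 2 and 4 without the block, 7 higher with pseudocount 0.1, 7 and 13 with no filter, 7 higher with the filter in every line, 21 higher with DESeq2, 1 and 2 with 8 libraries, 30 and 35 with 4 libraries, and 0 and 2 with edgeR without the block, with 0 to 14 higher and 0 to 27 lower over the fits without a pair. The fall of Nfe2l2 ranged from −1.99 to −1.73 when a pair was left out, and it lost its call without either Py2T LT pair. For genes whose effect differed from PyMT-1099 LT, no filter gave 1 greater and 1 smaller, edgeR 1 greater, DESeq2 8 and 18, and leaving out a pair 0 greater and 0 to 1 smaller. For those differing from MT∆Ecad (1125 and 1370), no replicate block gave 42 and 86, DESeq2 707 and 818, edgeR without the block 24 and 55, and leaving out a pair 222 to 1048 greater and 303 to 1316 smaller. TMM scaling moved the median change of all genes from −0.02 to 0.00 and the counts to 64 and 84. A count of 0 in a Py2T LT library allows a level of up to 0.101 CPM (3 reads, counting error only).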
